A study of Oryza sativa Japonica Group with 10 samples.

Results

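Wall-associated kinases, lectin receptor kinases and DUF26 kinases were followed in root RNA of rice seedlings. In their full form they are receptor-like kinases, proteins of the plasma membrane. These carry a kinase inside the cell and a domain outside it that can meet the cell wall or sugars. The members were the rows whose deposited description contained OsWAK, wall-associated kinase, lectin protein kinase, lectin-like receptor kinase or DUF26 kinase. This gave 181 of the 33486 rows of the table: 90 wall-associated, 39 lectin-type and 52 DUF26 rows. Of these, 66 had enough counts to be tested, namely 24 wall-associated, 19 lectin-type and 23 DUF26 members. By description the wall-associated rows included 17 cytoplasmic forms, 11 short genes, 6 receptor-like proteins without a kinase and 3 pseudogenes. Among the tested wall-associated members were 2 of the pseudogenes.

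Polyadenylated RNA was sequenced from cultivar Nipponbare (GSOR-100), with no genetic change and no treatment other than the move into hydroponics that all groups share. Seedlings were moved into Hoagland solution at 12 days of age, with roots in the light as well, and were sampled 2 or 6 days later. The 4 groups were root tip on day 2 (3 libraries), root tip on day 6 (3 libraries), mature root on day 2 (2 libraries) and mature root on day 6 (2 libraries). Tips comprised meristem plus elongation zone and mature root was the rest of the root system, so both are mixtures of cell types. Each library pooled 6 plants, and time in solution and plant age cannot be told apart.

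Wall-associated kinases are known for an outer part that binds pectin of the cell wall, and in several cereals members have been linked to resistance against fungi. Lectin receptor kinases carry a legume-type or, in the S-locus kind, a bulb-type lectin domain; an Arabidopsis member binds extracellular ATP. DUF26 kinases, also called cysteine-rich receptor-like kinases, carry cysteine-rich repeats outside the membrane and have been studied in Arabidopsis mainly in immunity and oxidative stress. In plants the families have grown through tandem copies that lie side by side on a chromosome.

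The tip libraries held 986907 to 2560074 counts and the mature root libraries 2161392 to 3286439. CPM below are counts scaled by library total and TMM (trimmed mean of M-values) factors, and 3 counts in a library were worth 0.809 to 2.69 CPM. As a check of the tissues, 5 of 9 suberin and secondary wall genes and 30 of 32 photosynthesis genes were lower in the tip and none was higher. Genes of dividing cells overlapped between the tissues, with 4 of 89 higher and 5 lower in the tip, a median log2 fold change of 0.38, and 0.823% to 1.4% of counts in tips against 0.795% to 1.15% in mature root. Photosynthesis genes took 0.00903% to 0.0243% of counts in tips and 0.324% to 0.674% in mature root, and suberin and secondary wall genes 0.0063% to 0.0151% and 0.0367% to 0.0915%. These lists moved with the tissue difference below, and their part in it was not tested. With bulk tissue, fewer cells of a type and less RNA per cell cannot be told apart.

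Together the 181 members took a small share of the RNA, and it was lower in the tip. Their share of all counts was 0.0862%, 0.0588% and 0.0927% in the tip pools of day 2 and 0.0761%, 0.0828% and 0.101% in those of day 6. In mature root it was 0.111% and 0.121% on day 2 and 0.179% and 0.168% on day 6. The 6 tip values thus lay below the 4 mature root values. DUF26 rows took 0.0239% ± 0.00258 in tips of day 2 (SD, n = 3) and 0.0313% ± 0.00389 in tips of day 6 (SD, n = 3). The shares were 0.0404% ± 0.00682 and 0.07% ± 0.0118 in mature root of day 2 and day 6 (SD, 2 libraries each). The highest tip, at 0.0357%, just reached the lowest mature root library, at 0.0356%. Lectin-type rows took 0.0264% ± 0.00847 on day 2 and 0.0232% ± 0.00718 on day 6 in tips (SD, 3 libraries each). Their shares in mature root were 0.0338% ± 0.00375 and 0.0545% ± 0.00323 (SD, 2 libraries each), apart from the tips on day 6 alone. A single member, LOC_Os03g62180-ext, took a large part of the lectin-type counts of that day. It had 333.6 and 99.8 CPM in mature root and 28.9 to 57.7 CPM in tips. The share without it was not computed, so the gap on day 6 is not shown for the lectin-type rows in general. Wall-associated rows overlapped between the tissues, with 0.0207% to 0.0485% in tips and 0.0348% to 0.0546% in mature root.

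**Figure D1:**
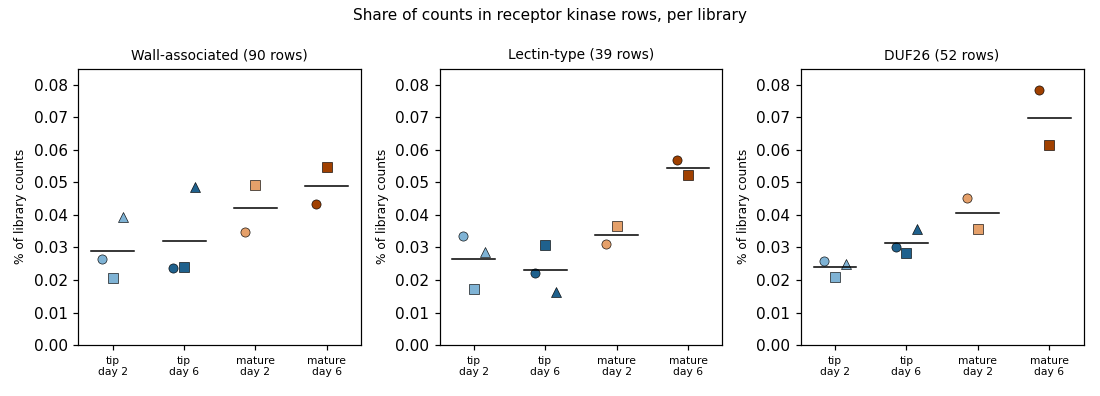
Percent of each library's counts that fell on the wall-associated, lectin-type and DUF26 rows (y axis, from 0), by group (x axis); circles, squares and triangles are replicates 1, 2 and 3 and bars are group means. The 2 mature root libraries of day 6 stand highest for DUF26 rows, at 0.0783% and 0.0616%, and the wall-associated panel overlaps between tissues.

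More members were also detected in mature root at equal depth. With all libraries thinned to the lowest total in a single random draw, 71 to 90 members had at least 1 count in a tip library and 91 to 115 in a mature root library. The margin was narrow on day 2, with 90 members in tip replicate 1 and 91 in mature root replicate 2. Over all rows of the table the thinned libraries overlapped, with 62.3% to 71.2% of rows detected in tips and 66% to 71.6% in mature root.

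The 115 members without a test were rarely read. Each had at least 1 count somewhere, 62 had fewer than 10 counts over all libraries, and none had more than 98. Together they had 587 counts in tips and 1341 in mature root. Among the 50 rows described as full OsWAK receptor-like protein kinases, 41 were not tested, so the wall-associated family was mostly near the limit of detection. Exons summed to a median of 2475 bases in the members and 1803 bases in all rows, and the median total was 28 counts per member against 107 per row. The members thus had longer models and fewer counts than rows in general. DUF26 models had a median of 7 exons and lectin-type models a median of 2, with 48.7% of the latter in a single exon.

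The first comparison set the tip against mature root over both days. Most members that differed were lower in the tip, by between 4.0-fold and at least 42.4-fold: 11 of 66 were lower and 1 was higher. Members were called by the quasi-likelihood test of edgeR, adjusted by Benjamini-Hochberg over 19234 rows, at a threshold of 0.05. Of all tested rows, 9.02% were called lower and 3.18% higher. By family, 5 of 19 lectin-type, 5 of 23 DUF26 and 1 of 24 wall-associated members were lower, and the member called higher was a DUF26 kinase. The median log2 fold change was -0.89 for the 66 members, -1.44 for DUF26, -0.86 for lectin-type and -0.34 for wall-associated members, against 0.05 for all tested rows. A value below 0 was seen in 46 of the 66 members and in 48.3% of all tested rows. A member could pass the filter on low counts through mature root alone, so these counts and medians describe the members that passed and not the families. Without that filter 28 of the 181 members were lower and 2 higher, beside 8.18% of all rows called lower. DESeq2 called 18 members lower and 2 higher, beside 12.5% of all rows called lower.

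The number of calls rested on single libraries. The number of members tested changed too, to 81 to 88 without a mature root library and 62 to 65 without a tip library. Without mature root day 6 replicate 1 only the S-locus lectin kinase LOC_Os01g40499-ext was still called lower. Without mature root day 2 replicate 1 or 2 5 or 3 members were called lower, and leaving out replicate 2 of mature root on day 6 gave 5. Leaving out replicate 2 of the tip on day 2 or on day 6 gave 7 and 6, and leaving out replicate 1 of the tip on day 6 gave 18. Calls over all rows moved as well: 3.44% were lower without mature root day 6 replicate 1, 4.18% to 5.54% without one of the other mature root libraries, and 7.2% to 9.7% without a tip library. The single higher call needed every one of the 4 mature root libraries. Without tip day 6 replicate 3 there were again 11 lower calls, but 6 of the 12 members called with all libraries kept theirs. Of the 66 members, 18 had their highest value in mature root day 6 replicate 1, and the same count over all tested rows was not made. This library also held the highest share of photosynthesis and suberin genes, at 0.674% and 0.0915%, and their part in the members' values was not tested.

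**Figure D2:**
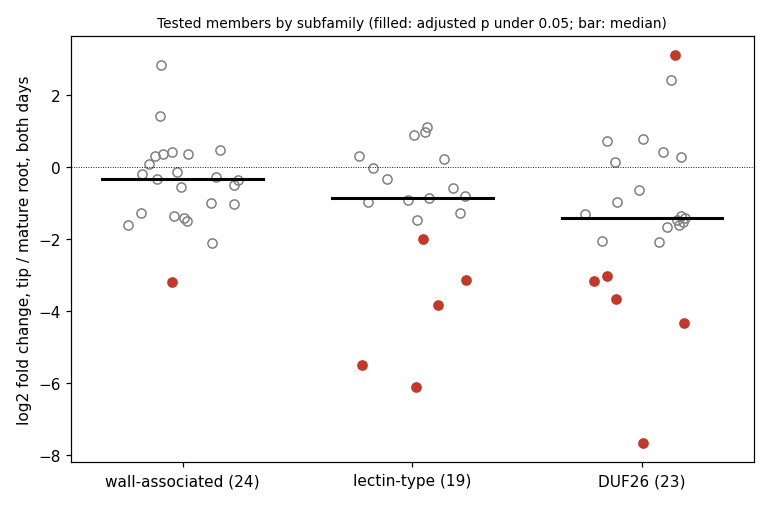
Log2 fold change of the tip against mature root over both days (y axis) for each tested member, by family (x axis, number tested in brackets); filled points passed an adjusted p under 0.05 and bars are medians. The DUF26 median lies at -1.44 and the wall-associated median at -0.34, and a single filled point, LOC_Os07g34980-ext at 3.1, lies above 0.

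Among lectin-type members, the S-locus lectin protein kinase LOC_Os01g40499-ext had the smallest adjusted p. It had 3.59, 2.93 and 4.81 CPM in the tips of day 2 and 0, 0.391 and 1.35 CPM in those of day 6. Mature root had 3.81 and 49.4 CPM on day 2 and 9.83 and 32.1 CPM on day 6. A tip of day 2 thus lay above the lowest mature root library, and the tissues overlapped on that day and not on day 6. The log2 fold change was -3.85 (SE 0.76, edgeR quasi-likelihood test, adjusted p = 0.00747), a 14.4-fold difference. With mature root day 2 replicate 2 left out it was no longer called (edgeR adjusted p = 0.0766).

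The lectin-like receptor kinases LOC_Os06g14260 and LOC_Os07g03790 had no count in any of the 6 tip libraries. LOC_Os06g14260 had 1.59 and 0.968 CPM in mature root on day 2 and 18.8 and 5.4 CPM on day 6. With a floor of 3 counts over the tip libraries together, or 0.288 CPM, it was at least 21.5-fold lower in the tip (adjusted p = 0.0153 in edgeR's test). LOC_Os07g03790, described as lectin-like receptor kinase 7, had 1.27 and 1.45 CPM in mature root on day 2 and 5.36 and 4.32 CPM on day 6. It was at least 10.9-fold lower in the tip (adjusted p = 0.0262 in edgeR's test), on 35 counts in all. These bounds pool the counts of both days, and none was made for day 2 by itself. On day 2 the mature root values of both genes lay below 3 counts in any single tip library (1.6 to 2.69 CPM). Both lost their call without replicate 1 of mature root on day 2 or on day 6, and LOC_Os07g03790 also without mature root day 2 replicate 2. LOC_Os07g03790 fell below the count filter without replicate 2 or 3 of the tip on day 6 or replicate 2 of mature root on day 6, and kept its call in the remaining 4 cases.

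The remaining called lectin-type members were read in both tissues. LOC_Os03g56160 had 0, 0.733 and 3.21 CPM in tips of day 2, 3.08, 0 and 0.898 CPM in tips of day 6, 2.22 and 16.9 CPM in mature root of day 2 and 23.2 and 7.55 CPM in mature root of day 6. Its log2 fold change was -3.16 (SE 0.91, edgeR adjusted p = 0.04), with overlap between tissues on day 2. LOC_Os12g38610-ext had 8.98, 2.93 and 1.6 CPM in tips of day 2 and 3.85, 1.95 and 3.14 CPM in tips of day 6. Its mature root values were 13.7 and 4.84 CPM on day 2 and 29.9 and 14.6 CPM on day 6, a log2 fold change of -2.0 (SE 0.58, edgeR adjusted p = 0.0413). Here too the tissues overlapped on day 2 and not on day 6. LOC_Os03g56160 was no longer called without replicate 2 of mature root on day 2 or without either library of mature root on day 6, and LOC_Os12g38610-ext without any of the 4 mature root libraries; both also lost it without tip day 2 replicate 2 or without replicate 2 or 3 of the tip on day 6. The former lost it besides without tip day 2 replicate 1, and the latter without tip day 2 replicate 3.

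The most highly read lectin-type members were not called over both days. The mean of LOC_Os03g62180-ext was 48.5 ± 19.4 CPM over tips (SD, n = 6) and 129.5 ± 138.7 CPM over mature root libraries (SD, n = 4), with 333.6 CPM in mature root day 6 replicate 1 alone. LOC_Os04g44900 had 59.3, 27.9 and 22.5 CPM in tips of day 2, 22.3, 11.7 and 16.2 CPM in tips of day 6, and 32.1, 67.3, 58.5 and 88.2 CPM in mature root, a log2 fold change of -1.29 (SE 0.43, edgeR adjusted p = 0.0683). It passed without tip day 2 replicate 1 (-1.56, edgeR adjusted p = 0.0433) and in DESeq2 (adjusted p = 0.021). That tip library held its highest tip value, so leaving it out lowers the tip level by itself and is no support for a difference. By description, 9 of 10 tested lectin-like receptor kinases had a log2 fold change below 0 (median -1.08), while the tested members described as lectin protein kinase family had 3 below and 4 above 0 (median 0.22). Among all tested rows 48.3% lay below 0.

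DUF26 members spanned the widest range. LOC_Os05g03920, annotated DUF26-lf.3, had 136 counts in mature root and none in any of the 6 tips. The mature root libraries held 14 and 0.968 CPM on day 2 and 31.3 and 5.4 CPM on day 6, so replicates of a day differed several-fold. Over the counts of both days together it was at least 42.4-fold lower in the tip (edgeR adjusted p = 0.0104). The call was lost without replicate 1 of mature root on day 2 or on day 6 (highest adjusted p = 0.063).

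LOC_Os07g35540, annotated DUF26-lc.19, separated the tissues in every library. It had 0.898, 0.733 and 0 CPM in tips of day 2 and 0.77, 0 and 1.35 CPM in tips of day 6, against 7.94 and 4.36 CPM in mature root of day 2 and 12.1 and 8.63 CPM in mature root of day 6. The log2 fold change was -3.67 (SE 0.8, edgeR adjusted p = 0.012). It lost its call without replicate 1 of mature root on day 2 or on day 6 (highest adjusted p = 0.075).

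LOC_Os07g35310, annotated DUF26-lc.12, was called on a single high library. Its tips had 10.8, 8.8 and 9.09 CPM on day 2 and 6.16, 6.25 and 3.59 CPM on day 6, and its mature root libraries 25.1 and 39.7 CPM on day 2 and 207.7 and 5.4 CPM on day 6. The log2 fold change of -3.03 (SE 0.7, edgeR adjusted p = 0.0158) became -0.9 when that library was left out (edgeR adjusted p = 0.324), and the call was also lost without mature root day 2 replicate 2. The tissues did not overlap on day 2, and on day 6 replicate 2 of mature root lay within the tip values.

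Lower levels were seen in LOC_Os07g35340 and LOC_Os07g35380-ext, annotated DUF26-lc.14 and DUF26-lc.16. The former had 4.49, 0 and 2.67 CPM in tips of day 2, 5.39, 0 and 0 CPM in tips of day 6, and 22.9, 9.2, 10.7 and 25.9 CPM in mature root. It did not overlap between tissues, with a log2 fold change of -3.17 (SE 0.95, edgeR adjusted p = 0.0467), and lost its call without any single library but tip day 6 replicate 1. LOC_Os07g35380-ext was read in 2 tip libraries of day 6, at 2.31 and 0.898 CPM, and in no other tip, and had 4.13, 1.45, 10.7 and 5.67 CPM in mature root. Its log2 fold change was -4.35 (SE 1.14, edgeR adjusted p = 0.0326), with 1 tip of day 6 above the lowest mature root library of day 2, and the call was lost without any of the 4 mature root libraries, without tip day 2 replicate 2 or 3, or without tip day 6 replicate 3. With no count in tips of day 2, the day 2 value (-5.65, SE 1.95) and that over both days are fitted and no measured ratios. Over pooled libraries it had 0.479 CPM in tips, on 5 counts, and 5.47 CPM in mature root.

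The member called higher in the tip was LOC_Os07g34980-ext, annotated DUF26-lh.9. It had 19.8, 2.93 and 2.14 CPM in tips of day 2 and 7.7, 7.82 and 14.4 CPM in tips of day 6, against 3.81 and 1.94 CPM in mature root of day 2 and 0 and 0.54 CPM in mature root of day 6. The tissues were apart on day 6 and overlapped on day 2. The log2 fold change was 3.1 (SE 0.84, edgeR adjusted p = 0.0321), and the call was also lost without tip day 2 replicate 1 or tip day 6 replicate 3.

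**Figure D3:**
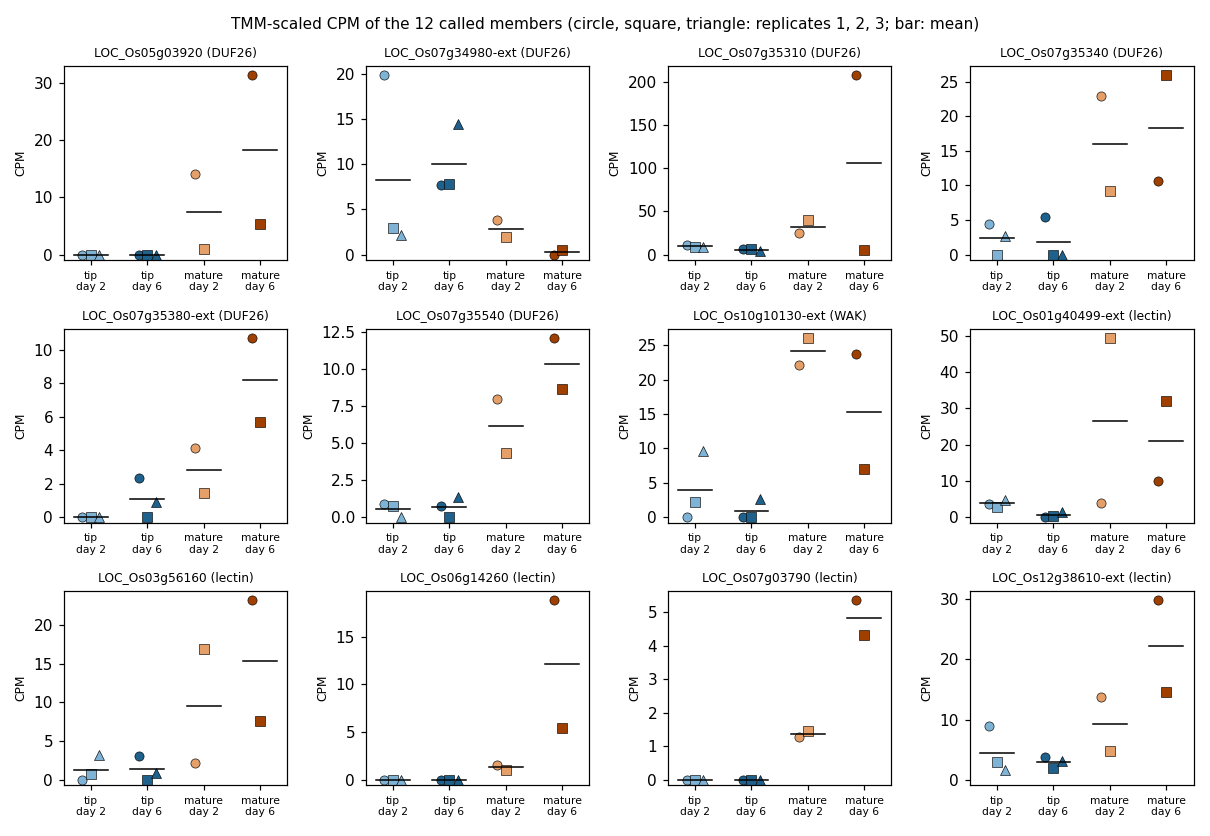
TMM-scaled CPM (y axis, linear, own scale in each panel) of the 12 members called between tip and mature root over both days, in the 4 groups (x axis); circles, squares and triangles are replicates 1, 2 and 3 and bars are group means. LOC_Os05g03920, LOC_Os06g14260 and LOC_Os07g03790 lie at 0 in all 6 tips, and LOC_Os07g35310 reaches 207.7 CPM in mature root day 6 replicate 1 and 5.4 CPM in replicate 2.

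Locus names carry the chromosome and the order of loci along it, and by them the DUF26 members were concentrated on chromosome 7, with 28 of 52. A stretch from LOC_Os07g35260 to LOC_Os07g35810 held 22 DUF26 rows. Its 12 tested members had fitted log2 fold changes below 0, from -4.35 (LOC_Os07g35380-ext, without a count in tips of day 2) to -0.65 with a median of -1.6. Of these 4 were called lower, beside 9.02% of all tested rows. For 1 of the 12, LOC_Os07g35690, the mean CPM was higher in the tip. Members could pass the filter through mature root alone. Among untested rows of the stretch, LOC_Os07g35650 had 69 counts in tips and 0 in mature root, and LOC_Os07g35330 had 30 and 25. The other untested rows there had fewer counts in tips than in mature root. A neighbouring stretch from LOC_Os07g34964 to LOC_Os07g35004 held 3 DUF26 rows, and its 2 tested members had values of 3.1 and 0.72, the first of them called higher. The 9 tested DUF26 members elsewhere had a median of 0.13, with 4 below and 5 above 0 and 1 called lower. The stretches were marked out after these values were seen, so they carry no test, and close copies can share reads, which makes values of single members uncertain and the members not independent of each other. In sum, the long stretch had 1318 counts in tips and 4117 in mature root (126.3 and 368.9 CPM over pooled libraries), and the short one 560 and 281 (53.7 and 25.2 CPM). In the short stretch 388 of the tip counts were of LOC_Os07g35004, which was not called (edgeR adjusted p = 0.422). Another 80 were of the untested LOC_Os07g34964, with 39 CPM in tip day 2 replicate 3 and at most 2.2 CPM in any other tip.

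Within the long stretch the most highly read member was LOC_Os07g35370, annotated DUF26-lc.15. It had 14.4, 28.6 and 26.2 CPM in tips of day 2, 47, 11.3 and 102.8 CPM in tips of day 6, and 76.8, 67.3, 184.5 and 103.1 CPM in mature root. Within each day the tips lay below mature root, on day 6 by a narrow margin, and over both days tip day 6 replicate 3 overlapped with mature root of day 2. The log2 fold change of -1.53 (SE 0.52) did not pass (edgeR adjusted p = 0.0728), and it did without tip day 6 replicate 3 (-1.98, edgeR adjusted p = 0.0264) and in DESeq2 (adjusted p = 0.0271). That tip library held the highest tip value of LOC_Os07g35370, so leaving it out lowers the tip level by itself and is no support for a difference. LOC_Os07g35580 and LOC_Os07g35790, picked after their values were seen because their tissues did not overlap in any library, did not pass in edgeR (adjusted p = 0.0793 and 0.141). DESeq2 called LOC_Os07g35580 (-1.35, adjusted p = 0.0317). The former averaged 14.3 ± 8.36 CPM over tips (SD, n = 6) and 33.6 ± 6.17 CPM over mature root libraries (SD, n = 4), and the latter 6.26 ± 3.82 and 19 ± 6.51 CPM. LOC_Os07g35690 shows a limit of the fit, which averages the log2 values of both days: its log2 fold change was -2.1, while its mean was 11 CPM over tips and 4.86 CPM over mature root libraries, with 63.8 CPM in tip day 6 replicate 3. Of the 66 tested members, 8 did not overlap between tissues, each of them lower in the tip. Of all tested rows, 7.34% did not overlap and lay lower in the tip, and 3.87% did not overlap and lay higher.

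**Figure D4:**
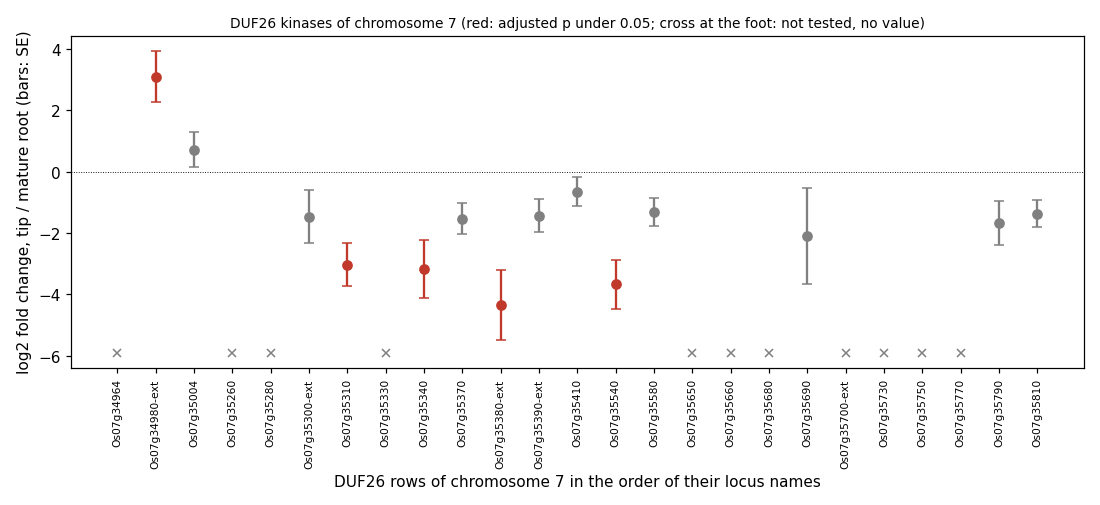
Log2 fold change of the tip against mature root over both days with its SE (y axis) for the DUF26 rows of the 2 stretches of chromosome 7, in the order of their locus names (x axis, not to scale); red points passed an adjusted p under 0.05, and crosses at the foot mark untested rows, which have no value. The 2 tested members at the left end lie above 0 and the 12 that follow lie below 0, among them LOC_Os07g35690, whose mean CPM was higher in the tip.

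Among wall-associated members, the OsWAK receptor-like protein kinase LOC_Os10g10130-ext, named OsWAK112d, was called lower. It had 0, 2.2 and 9.63 CPM in tips of day 2, 0, 0 and 2.69 CPM in tips of day 6, and 22.2, 26.1, 23.7 and 7.01 CPM in mature root. Within each day the tissues were apart, and over both days 1 tip lay above the lowest mature root library. The log2 fold change was -3.21 (SE 0.88, edgeR adjusted p = 0.0337), and the call was lost without any of the 4 mature root libraries or without replicate 2 of the tip on day 2 or on day 6.

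Cytoplasmic forms, which have the kinase without an outer domain and are labelled OsWAK-RLCK, included the 2 wall-associated members of highest mean CPM. OsWAK10d, LOC_Os01g49529-ext, had 20.7, 20.5 and 21.4 CPM in tips of day 2, 22.3, 19.2 and 69.6 CPM in tips of day 6, and 48.9, 49.9, 75 and 59.6 CPM in mature root. All tips but tip day 6 replicate 3 lay below mature root, and the log2 fold change of -1.05 (SE 0.43) did not pass (edgeR adjusted p = 0.127); without that library it was -1.47 and passed (edgeR adjusted p = 0.0272). OsWAK1, LOC_Os01g04409-ext, stayed between 3.85 and 8.06 CPM in 5 tips and reached 100.1 CPM in tip day 6 replicate 3, and mature root had 16.2, 112.8, 27.2 and 28.6 CPM (log2 fold change -1.43, SE 0.82, edgeR adjusted p = 0.268). Without that tip library the value was -2.96 and passed (edgeR adjusted p = 0.0103). For both of these cytoplasmic forms the library left out held the highest tip value. The direction of the shift was thus fixed in advance, and it is no support for a difference.

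Other kinds of wall-associated row went both ways without a call. OsWAK17, LOC_Os02g47160, a short gene that was chosen for its high tip value after the values were seen, had 201.6 CPM in tip day 2 replicate 3, 5.39 to 31.7 CPM in the other 5 tips and 2.23 to 8.63 CPM in mature root (log2 fold change 2.82, SE 0.99, edgeR adjusted p = 0.0825). DESeq2 called it (adjusted p = 0.0119). The gene described as wall-associated kinase 1, LOC_Os04g51030, chosen in the same way because its tissues did not overlap, averaged 1.82 ± 1.13 CPM over tips (SD, n = 6) and 8.0 ± 3.21 CPM over mature root libraries (SD, n = 4), with an adjusted p of 0.0597 in edgeR's test and 0.0243 in DESeq2. Of the 9 tested OsWAK receptor-like protein kinases 6 had a log2 fold change below 0 (median -0.36), as had 4 of 6 cytoplasmic forms and 2 of 5 short genes.

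Some untested members were read in a single tissue. OsWAK92, LOC_Os09g38910, had 0 counts in tips and 0.953, 1.94, 4.91 and 4.59 CPM in the 4 mature root libraries. Over the counts of both days together its level in the tip was at least 10.9-fold below mature root. OsWAK91, LOC_Os09g38850, had 43 counts in mature root, at 11.3 CPM in day 6 replicate 2, 0.447 CPM in day 6 replicate 1 and 0 on day 2. LOC_Os07g35650, annotated DUF26-lc.2, had 69 counts, all in tip day 6 replicate 3. Values of the last pair thus rested on 1 library each.

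Levels between members can be compared only per length of their exons. Per kilobase of exon, the mean over the 10 libraries ran from 0.311 to 26.6 CPM, with a median of 2.64 CPM over the 66 tested members. LOC_Os07g35370 (DUF26-lc.15) was at the top, with 15.4 CPM per kilobase in the tip and 43.4 in mature root. LOC_Os04g44900 (lectin-like receptor kinase) had 10.4 and 24 CPM per kilobase, and OsWAK1 had 8.62 and 18.6. The lectin protein kinase family member LOC_Os05g03450-ext, chosen after the values were seen, had 15 and 11.6 CPM per kilobase, so in the tip its mean was close to that of LOC_Os07g35370. The DUF26 member with the second highest CPM, LOC_Os01g35160, annotated DUF26-lh.4, had 28.7, 46.9 and 24.6 CPM in tips of day 2, 38.5, 116.5 and 27.8 CPM in tips of day 6, and 44.1, 14.5, 70.1 and 26.7 CPM in mature root. Its tissues overlapped on both days, and its log2 fold change of 0.26 (SE 0.53, edgeR adjusted p = 0.79) changed sign with single libraries left out.

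The second comparison took each day by itself. On day 2 no member passed edgeR's test, beside 1.15% of all tested rows. At an unadjusted p under 0.05 there were 17 of 66 members, and the share of all tested rows at that level was not counted. The smallest edgeR adjusted p of a member was 0.086. That value belonged to the lectin protein kinase family member LOC_Os02g13965-ext, which had 1.8, 1.47 and 3.21 CPM in tips and 13.7 and 20.3 CPM in mature root on day 2. On day 6 its tips had 0.77, 1.95 and 2.25 CPM and its mature root 1.34 and 2.16 CPM, so the gap was seen on day 2 and not on day 6. The next smallest was that of LOC_Os05g03920 (edgeR adjusted p = 0.154). For LOC_Os02g13965-ext the difference between days was a log2 value of 2.86 (SE 1.14), which did not pass (edgeR adjusted p = 0.513). DESeq2 called 4 members on day 2, beside 5.47% of all rows.

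On day 6, 5 members were lower and 1 higher in the tip, beside 5.75% and 1.33% of all tested rows. The lower ones were LOC_Os05g03920, LOC_Os06g14260, LOC_Os07g35310, LOC_Os01g40499-ext and LOC_Os03g62180-ext, and the higher one was LOC_Os07g34980-ext. None of them passed the test of the difference between days, in which the smallest adjusted p of any member was 0.513 in edgeR. LOC_Os03g62180-ext, of the lectin protein kinase family, had 57.7, 28.9 and 44.9 CPM in tips and 333.6 and 99.8 CPM in mature root on day 6, a log2 fold change of -2.31 (SE 0.61, edgeR adjusted p = 0.0425). On day 2 it had 82.6, 34.4 and 42.2 CPM in tips and 42.5 and 42.1 CPM in mature root, and the difference between days of -2.63 (SE 0.89) did not pass (edgeR adjusted p = 0.513). Without tip day 6 replicate 2 or without replicate 1 of mature root on day 6 no member was called on day 6, without tip day 6 replicate 3 there was 1, and without any other mature root library there were 3. In a fit of the 2 groups alone 2 members were called, beside 3.33% of all rows, and DESeq2 called 18, beside 14.5%.

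Both days together, 36 members had a log2 fold change below 0 on each day and 10 had one above 0 on each day. Among all tested rows 50% lay below 0 on day 2 and 48.2% on day 6, and the share below 0 on both days was not counted. As above, a member could pass the filter on low counts through mature root alone. The other 20 members changed sign, 10 in each direction. Across the 66 members, which are not replicates and were fitted in 1 model, Pearson's r between the values of both days was 0.527.

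**Figure D5:**
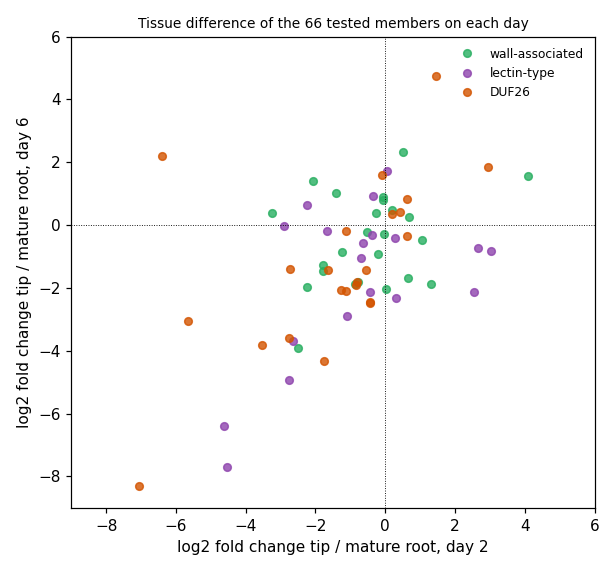
Log2 fold change of the tip against mature root on day 2 (x axis) and on day 6 (y axis) for the 66 tested members, coloured by family. Most points lie at the lower left, 36 of 66 below 0 on both days, and LOC_Os07g35690 stands alone at the upper left with -6.39 on day 2 and 2.19 on day 6.

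The third comparison asked what changed between day 2 and day 6. No member and no other row passed edgeR's test in the tip (0% of tested rows), in mature root (0%) or for the difference between tissues over time (0%). At an unadjusted p under 0.05 there were 4, 8 and 8 members. The share of all tested rows at that level was not counted, so these numbers are no result about the members. DESeq2 called 1 member in the tip, 3 in mature root and 0 for the difference, beside 0.761%, 2.21% and 0.639% of all rows. The median log2 value of the members was 0 in the tip and 0.43 in mature root, against 0.03 and -0.03 for all tested rows.

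In the tip the smallest p-values belonged to OsWAK4 and LOC_Os07g35690. OsWAK4, LOC_Os01g20900, a cytoplasmic form, had 1.8, 7.33 and 5.88 CPM on day 2 and 13.1, 33.6 and 99.7 CPM on day 6, a log2 fold change of 3.25 (SE 0.8, edgeR adjusted p = 0.425). All its tips of day 6 lay above those of day 2, and it was the member DESeq2 called (adjusted p = 0.0162). LOC_Os07g35690, annotated DUF26-lc.3, had 0 CPM in the tips of day 2 and 1.54, 0.782 and 63.8 CPM on day 6, so it rested on replicate 3 (edgeR adjusted p = 0.425). The neighbouring LOC_Os07g35650 was read in that library alone, and OsWAK1, OsWAK10d and LOC_Os07g35370 had their highest tip value there. Of the 66 tested members, 6 to 19 had their highest tip value in each of the other tips, and 10 in tip day 6 replicate 3. In that library photosynthesis genes took 0.0243% of counts, the highest of the 6 tips, and suberin and secondary wall genes 0.0122%, below tip day 2 replicate 1 alone among tips. The lowest mature root shares were 0.324% and 0.0367%, and the part of either list in these values was not tested.

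In mature root the smallest p-values belonged to the lectin member LOC_Os02g13965-ext, with a log2 fold change of -3.21 (SE 0.86, edgeR adjusted p = 0.284), and to OsWAK125, LOC_Os12g29430-ext. OsWAK125 is labelled a receptor-like protein, a form with the outer part and no kinase. It had 5.08 and 4.84 CPM on day 2 and 16.1 and 63.7 CPM on day 6, a value of 3.0 (SE 0.85, edgeR adjusted p = 0.284), and 1.47 to 10 CPM in tips. DESeq2 called both of these and LOC_Os03g62180-ext. For the difference between tissues over time, LOC_Os04g23700-ext of the lectin protein kinase family shared the smallest adjusted p, 0.513 in edgeR's test, at -3.86 (SE 1.36). It had 10.8, 9.53 and 71.7 CPM in tips of day 2 and 13.9, 11.3 and 4.04 CPM in those of day 6, against 4.45, 2.9, 8.04 and 25.9 CPM in mature root.

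Other genes of the same pathways were counted for the tissue comparison over both days, with lists drawn from descriptions. Lectin and cysteine-rich kinases whose wording fell outside the rule had 3 of 14 lower and 0 higher (median log2 fold change -0.71). These 3 were described as cysteine-rich receptor-like protein kinases, among them LOC_Os04g25650 and LOC_Os04g25060, whose values were close to each other in every library, so they may share reads. Both ran from 0 to 17.1 CPM in tips, and from 66.7 to 724.9 CPM and 66.8 to 624.4 CPM in mature root. The third, LOC_Os04g03370-ext, had 215.4 CPM in mature root day 2 replicate 2 and at most 5.4 CPM in any other library. Leucine-rich repeat receptor kinases had 11 of 53 lower and 0 higher (median -0.44), and other receptor-like kinases 23 of 142 lower and 4 higher (median 0.07). Lectin-domain genes without a kinase had 2 of 15 lower and 0 higher (median -0.55). Pectin-modifying enzymes, which act on the wall polymer that wall-associated kinases bind, had 5 of 39 lower and 3 higher (median -0.05). Downstream, MAP kinase cascade genes had 0 of 41 called (median -0.31), kinases of the calcium and calmodulin class 4 of 47 lower (median -0.27), respiratory burst oxidases 1 of 6 lower (median 0.06) and WRKY transcription factors 16 of 61 lower (median -1.27), with 0 higher in each.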

How the data were processed

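Raw whole-number counts of 10 libraries were deposited by the authors, one row per gene model, per the file headers. Exon numbers and summed exon lengths are the deposited scores of each model. Bowtie, SAMtools 0.1.12a, Cufflinks 1.0.3 and TopHat 1.3.1 are listed, per the submitters' processing notes. Not given in the sources used here: build, counting tool, strand use; antisense reads may be included. Rows ending in -ext (34 members) were kept as named. Locus names of 0 members occur in the RefSeq gene table at hand, so no sequences or coordinates are given.

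Tests used edgeR 4.0.16 (limma 3.58.1, R 4.3.3): filterByExpr over the 4 groups (minimum count 10, minimum total 15), TMM, quasi-likelihood tests with 1 mean per group over all 10 libraries, and Benjamini-Hochberg adjustment over 19234 rows at 0.05. SEs were taken from the F statistic. Each pool is an independent replicate per the labels' protocols. The alternatives included no filter, library totals or DESeq2 size factors for scaling, robust dispersion, a minimum of 5 CPM in 2 libraries, the test of DESeq2 1.42.0, the replicate number as a block, only the groups compared, thinned libraries, and each library left out. The fit was tested on simulated counts.

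The members and lists were chosen with earlier results of these data known, and list patterns were narrowed after the deposited descriptions were read. Named members were all called ones, the 2 highest in mean CPM per family, called members or the 2 smallest p in each other contrast, and members at 0 in a tissue with at least 30 counts in the other; others are marked. A left-out mature root library leaves its group with 1, assumed to vary like the rest. Floors (3 counts) cover counting error only, since no molecular identifiers are mentioned.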

Additional observations from a re-analysis of the deposited data

Results flagged for a closer look

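Named members were screened for a library far from the others of its tissue, by Dixon's ratio at 95% over the 6 tip or the 4 mature root libraries of both days. Of 52 sets 13 were marked, while chance marks about 1 in 20, and low counts are skewed. In tip day 6 replicate 3, OsWAK1 (LOC_Os01g04409-ext) had 100.1 CPM with the next tip at 8.06. In the same library OsWAK10d (LOC_Os01g49529-ext) had 69.6 CPM with the next at 22.3, and OsWAK4 (LOC_Os01g20900) 99.7 with the next at 33.6. The DUF26 members LOC_Os07g35690 and LOC_Os07g35650 also stood out there, at 63.8 and 31 CPM with the next tips at 1.54 and 0. In tip day 2 replicate 3, LOC_Os04g23700-ext had 71.7 CPM (next 13.9) and OsWAK112d (LOC_Os10g10130-ext) 9.63 CPM (next 2.69). In tip day 2 replicate 1, LOC_Os04g44900 had 59.3 CPM (next 27.9) and LOC_Os12g38610-ext 8.98 CPM (next 3.85). In tip day 6 replicate 2, LOC_Os01g35160, annotated DUF26-lh.4 and the DUF26 member with the second highest mean, had 116.5 CPM (next 46.9); its tissues overlapped, with 14.5 to 70.1 CPM in mature root. In mature root, LOC_Os07g35310 had 207.7 CPM in day 6 replicate 1 (next 39.7), OsWAK1 112.8 CPM in day 2 replicate 2 (next 28.6) and OsWAK91 (LOC_Os09g38850) 11.3 CPM in day 6 replicate 2 (next 0.447).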

How the results depend on the processing

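Over both days, the 12 members called (11 lower, 1 higher) became 30 without the filter on low counts (28 and 2; wall-associated 9, lectin-type 8 and DUF26 11 lower), 20 with DESeq2 (18 and 2; 2 wall-associated and 10 DUF26 lower), and 7 with thinned libraries (7 and 0; wall-associated 0, lectin-type 2). Of all rows, 8.18%, 12.5% and 6.84% were called lower in these settings, in that order, and 50 members were tested when thinned. Other scalings, the stricter filter and robust dispersion gave counts within 1.5 times. All 12 remained called with DESeq2, without the filter and with either other scaling, 11 with the stricter filter and 5 when thinned. A block for the replicate number kept 3 of the 12. With a library left out, 1 to 19 were called, with 1 to 18 lower and 0 to 2 higher; lower calls were 0 to 3 wall-associated, 1 to 5 lectin-type and 0 to 10 DUF26. On day 2 the count of 0 became 8 without the filter and 4 with DESeq2, and 0 to 0 with a library left out; on day 6 the count of 6 became 21, 18, 2 in a fit of the compared groups, and 0 to 9 with a library left out. Between days, the count of 0 became 6 (no filter) and 1 (DESeq2) in the tip, 3 (DESeq2) in mature root, and 2 (no filter) for the difference. Over all tested rows, same-numbered libraries did not deviate together (correlations from -0.0447 to 0.023 over 13 pairs, which are not independent). Whether they shared a factor in part of the genes was not tested. With the replicate number as a block 4 members were called over both days (4 lower, 0 higher), beside 5.15% of all rows called lower. Among these were 1 lectin-type and 2 DUF26 members. On day 2 the block gave 1 call and on day 6 it gave 3. Among values of named members under the alternatives, 322 kept direction and call, 68 lost a call and 10 gained one; the 6 that changed sign were of uncalled members: LOC_Os01g35160, 0.26 in the report's fit, ran from -0.18 to 0.76 with a library left out (below 0 in 3 cases, up to -0.02), and LOC_Os01g20900, -0.21, became 0.12 when thinned and ran from -0.73 to 0.07 with a library left out. The causes were not tested. With 3 counts worth 0.809 to 2.69 CPM, depth limits most members.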
